A study of Zea mays with 6 samples.

Results

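Embryo-surrounding region genes are 5 maize genes, esr1 (GRMZM2G046086), esr2 (GRMZM2G315601), ESR3 (GRMZM2G140302), esr6 (GRMZM2G048353) and ae3 (GRMZM2G372553), chosen by identifier among 39448 genes with a deposited value. All 5 had a value above 0 in every library. RNA was sequenced from endosperm, the nutritive tissue of the maize (Zea mays) kernel, of floury3 (fl3) mutant plants and of wild-type (WT) plants. Each genotype had 3 libraries, described as independent biological replicates, from field-grown material harvested on day 10 after flowering. The labels name no other treatment or allele, and they give neither the genetic background of the lines nor the number of kernels per library, nor whether fl3 and WT came from the same ears.

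The embryo-surrounding region is a small group of densely cytoplasmic endosperm cells that encloses the young embryo and shrinks as the embryo grows out of it. The Esr genes that named the region encode small secreted proteins and, with CLAVATA3 of Arabidopsis, gave the CLE family of signalling peptides its name. In plants, CLE peptides are cut from secreted precursors and bind receptor kinases on the cell surface. esr6 encodes a defensin, a small cysteine-rich antimicrobial protein, and ae3 was first isolated from androgenic maize embryos, which grow from microspores. The floury3 gene product belongs to the PLATZ family of zinc-binding plant proteins, and its mutation leaves a soft, opaque endosperm.

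Levels are given in FPKM, that is, sequenced fragments corrected for gene length and for the total of each library. A test with limma on log2(FPKM + 1) was run for the 17272 genes whose 6 libraries averaged 1 FPKM or more, and a gene is said to have risen or fallen at a Benjamini-Hochberg adjusted p under 0.05. Log2 fold changes are fl3 minus WT on that scale, which understates the change of low genes, while folds are ratios of mean FPKM. Over all tested genes 43.5% were called higher in fl3 and 23.8% lower. The median log2 fold change was 0.14, and the share of calls that were upward, 64.7%, moved to 50.4% under median-of-ratios scaling, 55.6% under upper-quartile scaling and 48.3% under quantile normalization. FPKM summed to between 465741 and 480602 per library, and sequencing depth is unknown. The floury3 transcript (GRMZM2G006585) itself averaged 3158 ± 67.3 FPKM in fl3 and 2260 ± 164 FPKM in WT (SD, n = 3 each; log2 fold change 0.48, limma adjusted p = 0.00146). Zein transcripts, which mark starchy endosperm, summed to between 11918 and 16942 FPKM in fl3 and between 33387 and 41995 FPKM in WT, and no listed gene of green maternal tissue exceeded 0.352 FPKM in any library.

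esr1, esr2, ESR3 and esr6 rose in fl3, and each had its lowest fl3 value above its highest WT value. ae3 was likewise higher in every fl3 library, but it reached the filter on low values only through those libraries, so it is left out of the counts in the rest of this paragraph. The 4 calls stand against 43.5% of tested genes called higher, and the absence of overlap against 45.8% of tested genes with every fl3 library above every WT library. The log2 fold changes of the 4 genes ran from 1.41 for esr2 to 2.84 for ESR3, with a median of 1.80 beside the 0.14 of all tested genes. Each had a log2 fold change of at least 1 with a call, which 10.1% of tested genes had. The genes were chosen with earlier results of these data known, so these shares are background and no test. In whole-tissue RNA, more cells of a type and more RNA per cell cannot be told apart.

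Of the CLE-type genes esr1, esr2 and ESR3, esr2 had the highest level. It led the 5 genes in every library, with 296, 241 and 245 FPKM in fl3 replicates 1 to 3, against 112, 86.3 and 95.7 FPKM in WT replicates 1 to 3. The fl3 libraries lay at least 2.16-fold above the highest WT library. Mean esr2 transcript levels were 261 ± 30.3 FPKM in fl3 and 98.0 ± 12.9 FPKM in WT, a 2.66-fold difference (SD, n = 3 each; log2 fold change 1.41, SE 0.11, limma adjusted p = 9.93e-06). Among tested genes esr2 ranked 227th by level in fl3 and 767th in WT.

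esr1 had 98.8, 64.1 and 97.3 FPKM in fl3 replicates 1 to 3, against 22.3, 16.9 and 18.1 FPKM in WT replicates 1 to 3. The second fl3 library was the low one and still lay 2.87-fold above the highest WT library. The means were 86.7 ± 19.6 FPKM in fl3 and 19.1 ± 2.84 FPKM in WT, a 4.54-fold difference (SD, n = 3 each; log2 fold change 2.11, SE 0.17, limma adjusted p = 1.08e-05). The log2 fold change of esr1 was exceeded by 1.38% of tested genes and that of esr2 by 4.53%.

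ESR3 had 108, 69.1 and 71.4 FPKM in fl3 replicates 1 to 3, against 10.5, 8.39 and 13.0 FPKM in WT replicates 1 to 3. It was the lowest of the CLE-type genes in each WT library. ESR3 was above esr1 in fl3 replicates 1 and 2 and below it in fl3 replicate 3, whereas it was below esr1 in every WT library. The means were 82.7 ± 21.7 FPKM in fl3 and 10.6 ± 2.33 FPKM in WT, a 7.78-fold difference (SD, n = 3 each; log2 fold change 2.84, SE 0.19, limma adjusted p = 4.2e-06). ESR3 ranked 968th by level among tested genes in fl3 and 6986th in WT. These genes are close copies and the reference table lists ESR1 among the synonyms of esr2 too, so the division of reads between them is uncertain. Their summed level was 430 ± 65.4 FPKM in fl3 and 127.7 ± 16.6 FPKM in WT (SD, n = 3 each).

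The defensin gene esr6 varied least between replicates. It had 96.0, 85.4 and 81.2 FPKM in fl3 replicates 1 to 3, against 33.2, 29.0 and 29.7 FPKM in WT replicates 1 to 3. The SD was 8.71% of the mean in fl3 and 7.48% in WT, where the other genes had 11.6% to 26.2% in fl3 and 13.2% to 21.9% in WT. Its means of 87.6 ± 7.63 FPKM in fl3 and 30.6 ± 2.29 FPKM in WT differed 2.86-fold (SD, n = 3 each; log2 fold change 1.48, SE 0.08, limma adjusted p = 1.29e-06). At this level esr6 lay close to esr1 and ESR3 in fl3, whereas in WT it lay above both in every library.

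ae3 was the lowest gene of the group. It had 13.6, 11.2 and 8.38 FPKM in fl3 replicates 1 to 3, against 0.581, 0.794 and 0.689 FPKM in WT replicates 1 to 3. Every WT library was under 1 FPKM, so ae3 had to differ once it had passed the filter. Its means were 11.1 ± 2.60 FPKM in fl3 and 0.688 ± 0.107 FPKM in WT, a 16.1-fold difference (SD, n = 3 each; log2 fold change 2.81, SE 0.15). With no filter on low values the limma adjusted p of ae3 was 2.57e-05. By level ae3 ranked 7387th of the tested genes in fl3 and 16723rd in WT.

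**Figure D1:**
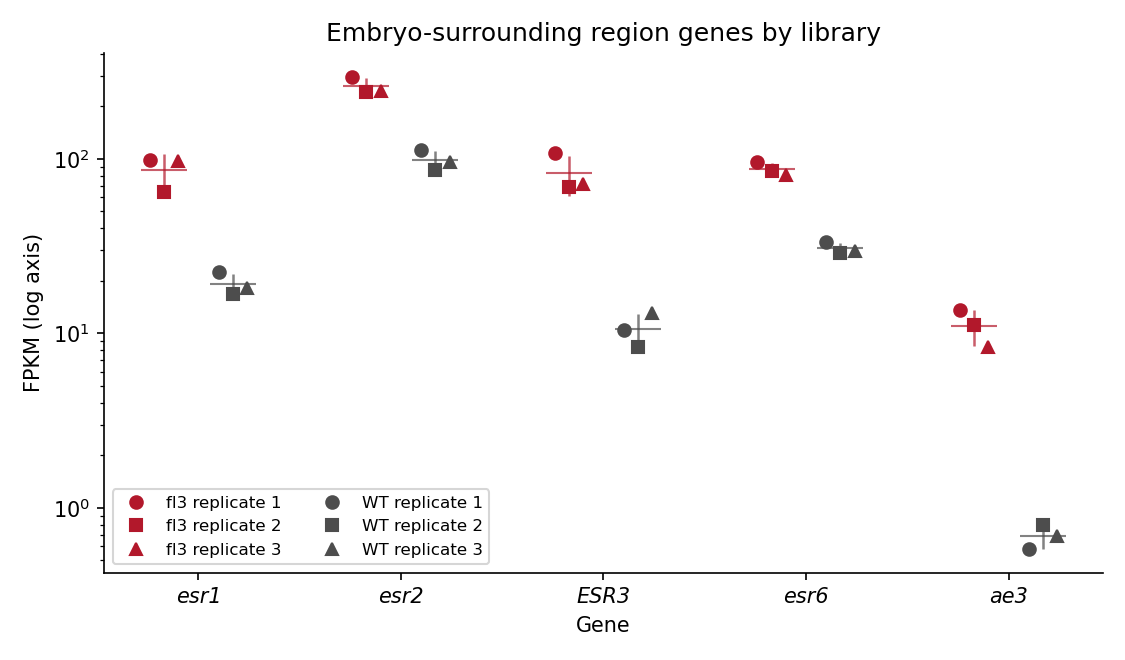
FPKM (log axis) of the 5 genes in the 3 fl3 libraries (red, left of each pair) and the 3 WT libraries (grey, right), with a marker shape per replicate, a horizontal line at the mean and a vertical line for the SD. For each gene every red marker lies above every grey one, with the widest gap for ae3, whose lowest fl3 value was 10.5-fold its highest WT value.

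On the log2(FPKM + 1) scale the changes of ESR3 and ae3 were near one another, at 2.84 and 2.81. The order of these genes rested on the pseudocount: with 0.1 FPKM added in place of 1 FPKM, ae3 had a log2 fold change of 3.80 and ESR3 of 2.94. esr1 lay between them and the pair esr6 and esr2, at 1.48 and 1.41.

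**Figure D2:**
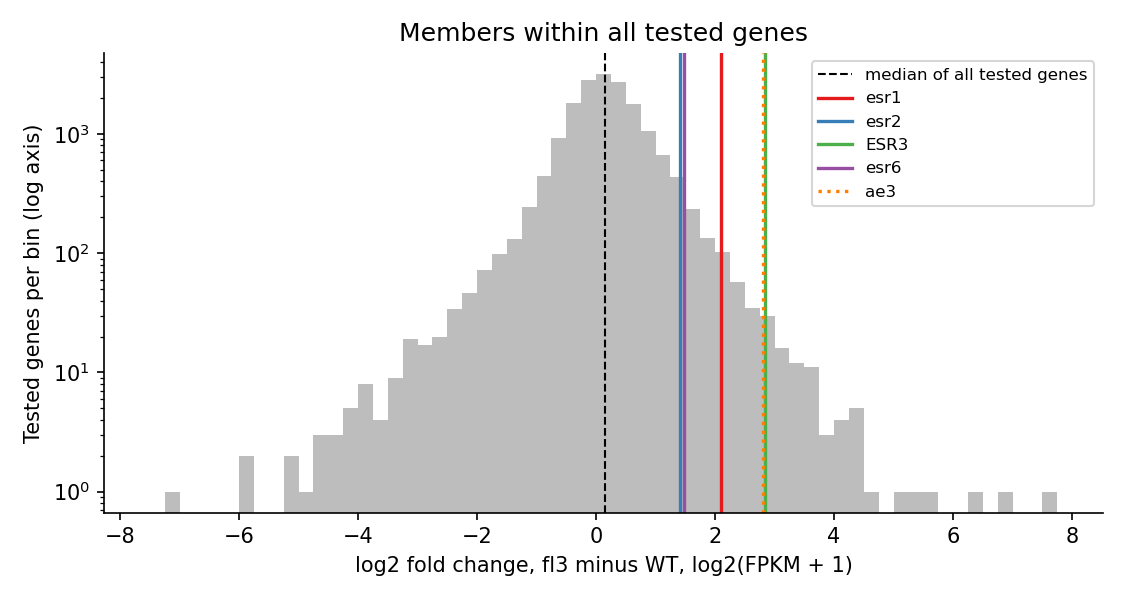
Histogram of the log2 fold change (fl3 minus WT, log2(FPKM + 1)) of the 17272 tested genes, with the count per bin on a log axis, the median of all tested genes as a dashed line and the 5 genes as coloured lines. All 5 lines stand right of the median of 0.14, from esr2 at 1.41 to ESR3 at 2.84.

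Whether the genes changed by different amounts was asked through their ratios to each other in each library, over all 10 pairs. For 7 pairs the log2 ratios of (FPKM + 1) of the fl3 libraries did not overlap those of the WT libraries, and for 9 pairs the ratios of FPKM itself did not. The 7 include the ratios of esr2 and esr6 to ae3, and the 9 include every ratio to ae3, which reached the filter only through fl3. The share of all gene pairs without overlap was not computed, so the counts are not read as particular to these genes. Ratios below are of FPKM, and differences of mean log2 ratios are of FPKM + 1. None passed an exact two-sided permutation test adjusted over the pairs: the smallest p that 3 against 3 libraries can give is 0.1, which became 0.143. The ratio of esr2 to ESR3 differed most among the CLE-type genes, with esr2 at 2.75, 3.49 and 3.44 times ESR3 in fl3 replicates 1 to 3 and at 10.7, 10.3 and 7.34 times ESR3 in WT replicates 1 to 3. Every fl3 ratio was under every WT ratio (difference of mean log2 ratios -1.43, exact permutation adjusted p = 0.143).

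esr1 stood at 0.334, 0.266 and 0.397 times esr2 in fl3 replicates 1 to 3 and at 0.199, 0.196 and 0.189 times esr2 in WT replicates 1 to 3. The WT ratios were tight and the fl3 ratios lay above all of them (difference of mean log2 ratios 0.70, exact permutation adjusted p = 0.143). ESR3 stood at 1.12, 0.809 and 0.879 times esr6 in fl3 replicates 1 to 3 and at 0.315, 0.289 and 0.440 times esr6 in WT replicates 1 to 3. The closest pair was esr2 and esr6, genes of different protein families on different chromosomes: esr2 was 3.08, 2.83 and 3.02 times esr6 in fl3 replicates 1 to 3 and 3.37, 2.98 and 3.23 times esr6 in WT replicates 1 to 3. Those ratios overlapped between genotypes (difference of mean log2 ratios -0.08, exact permutation adjusted p = 0.333).

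The 5 genes together summed to 612, 471 and 504 FPKM in fl3 replicates 1 to 3, against 179, 141 and 157 FPKM in WT replicates 1 to 3. That was 0.112% ± 0.0172 of the FPKM sum in fl3 and 0.0333% ± 0.00399 in WT (SD, n = 3 each). The makeup of this sum is described without a test. The shares of esr1, esr2 and ESR3 rest on the uncertain division of reads between these close copies. esr2 held 49.4% ± 1.57 of it in fl3 and 61.5% ± 0.999 in WT, while ESR3 held 15.5% ± 1.86 in fl3 and 6.70% ± 1.38 in WT. The share of esr1 was 16.4% ± 2.87 in fl3 and 12.0% ± 0.488 in WT, that of esr6 16.7% ± 1.30 in fl3 and 19.3% ± 1.02 in WT, and that of ae3 2.09% ± 0.374 in fl3 and 0.442% ± 0.118 in WT. In fl3, esr1, ESR3 and esr6 thus held shares within their spread of each other, whereas in WT esr6 exceeded esr1 and esr1 exceeded ESR3 in every library.

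**Figure D3:**
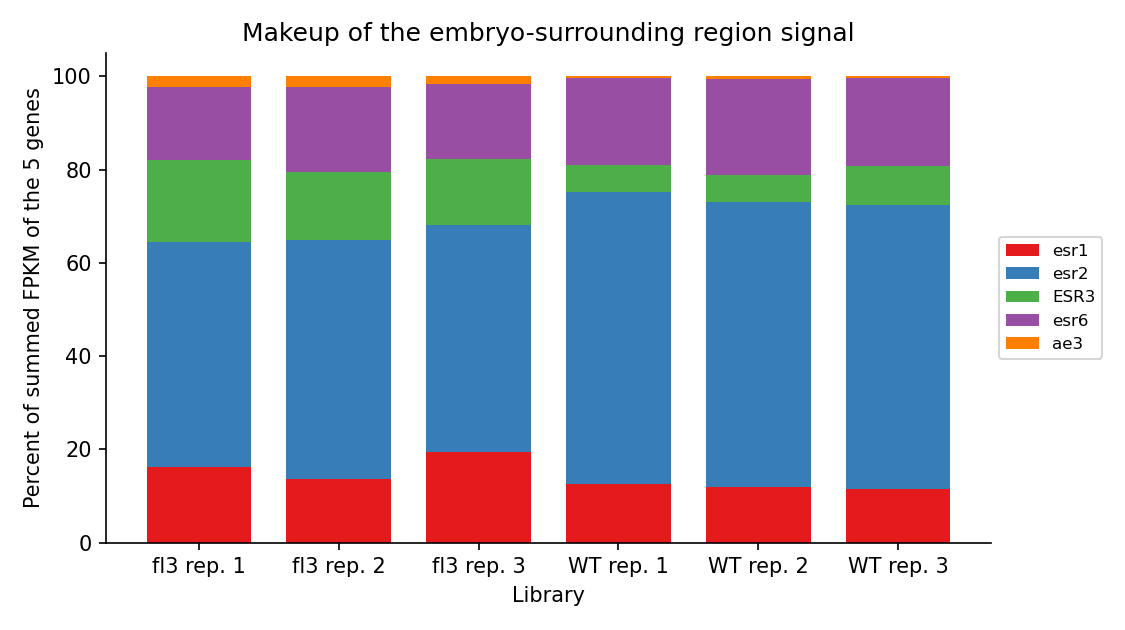
Share of each gene in the summed FPKM of the 5 genes, as a percentage, with a bar per library and the 3 fl3 libraries left of the 3 WT libraries. esr2 (blue) takes 48.3% to 51.2% of the bars of fl3 and 60.9% to 62.7% of those of WT, and ESR3 (green) takes 14.2% to 17.6% in fl3 and 5.86% to 8.29% in WT.

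Within a genotype the genes did not all follow one order of libraries. In fl3 all 5 genes were highest in replicate 1, and the lowest library was replicate 2 for 3 genes and replicate 3 for 2 genes. In WT 3 genes, esr1, esr2 and esr6, were highest in replicate 1, ESR3 was highest in replicate 3 and ae3 in replicate 2. Replicate 2 was the lowest WT library for 4 genes and the highest for ae3. Deviations from the genotype mean on the log2(FPKM + 1) scale spanned -0.40 for esr1 in fl3 replicate 2 to 0.41 for ESR3 in fl3 replicate 1, smaller than any of the 5 differences between genotypes. With 3 libraries in each of 2 well separated genotypes, a correlation between genes over libraries cannot be tested, and none is given.

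Genes of the basal transfer layer, the endosperm cells that take up maternal nutrients, followed another order. Over all tested genes 43.5% rose and 23.8% fell. Among the 13 tested basal transfer layer genes of the 14 listed, 3 rose, 1 fell and 9 missed the threshold, with a median log2 fold change of 0.09. Counts and median depended on single libraries and on scaling: without WT replicate 3, 1 rose and 2 fell (median -0.05), without fl3 replicate 2, 2 rose and 2 fell (median -0.24), without fl3 replicate 3, 4 rose and 1 fell (median 0.35), and under median-of-ratios scaling 2 rose and 2 fell (median -0.07). Their summed level was 5107, 7159 and 3921 FPKM in fl3 replicates 1 to 3, against 5357, 4891 and 3924 FPKM in WT replicates 1 to 3. The genotypes overlapped, and fl3 replicate 2, which was lowest for 3 of the embryo-surrounding region genes, was the highest library for this sum. The mean level of the basal transfer layer genes was then added to the fit as a covariate, a choice made with the data in view. In that fit esr1, esr2, ESR3 and esr6 kept their calls, with log2 fold changes from 1.40 to 2.85. ae3 is not counted, since it reached the filter only through fl3. That mean log2 level overlapped between genotypes, at 6.87 to 7.92 in fl3 and 7.01 to 7.51 in WT, so the covariate could move these values little. The part of this tissue in the rise was not tested.

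**Figure D4:**
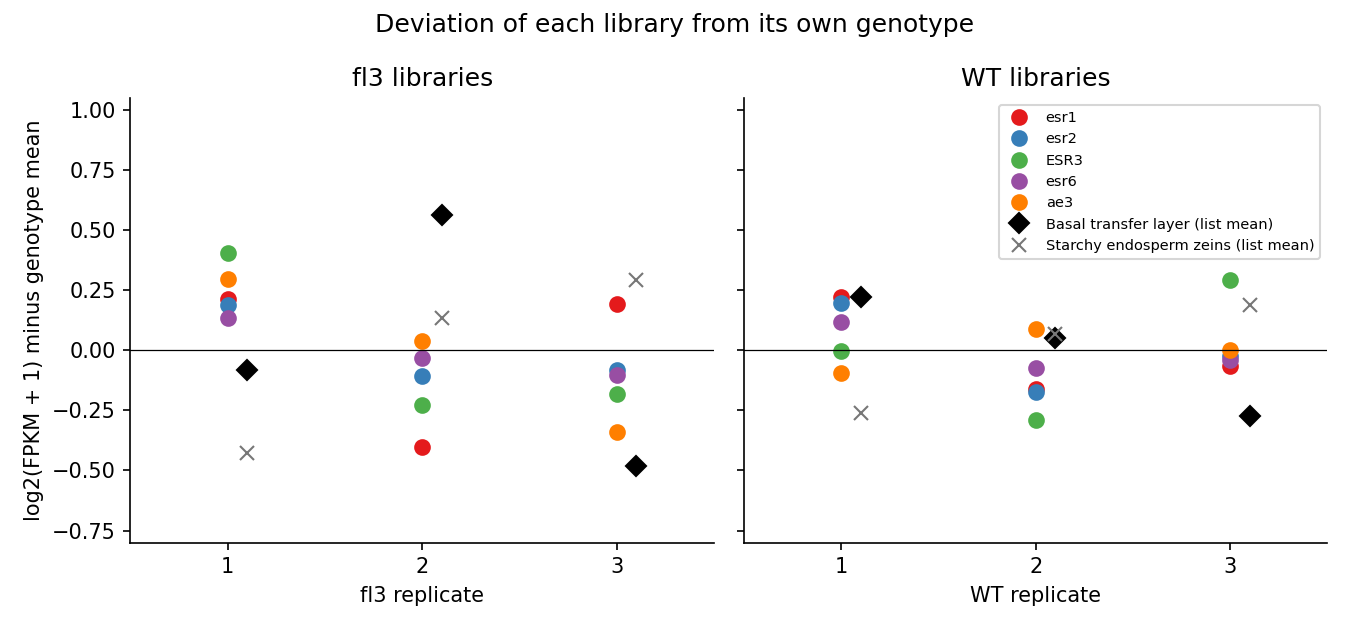
Deviation of log2(FPKM + 1) from the mean of the library's own genotype, for the 5 genes (circles) and for the mean of the tested basal transfer layer genes (diamonds) and zein genes (crosses), in fl3 libraries (left) and WT libraries (right). In fl3 replicate 1 all 5 circles are above 0 while both list means are below it, and in fl3 replicate 2 the basal transfer layer mean is 0.56 above 0 while esr1 is 0.40 below it.

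The list of embryo genes held 13 genes and 6 of them were tested. Of these 3 rose, 1 fell and 2 missed the threshold, where 43.5% of all tested genes rose and 23.8% fell, at a median log2 fold change of 0.44, and knox3 was at 0 in every library. The embryo regulator lec1 was under the filter, at 1.66, 1.03 and 1.07 FPKM in fl3 replicates 1 to 3 and at 0, 0.0421 and 0 FPKM in WT replicates 1 to 3. The shoot meristem gene kn1, also under the filter, had 0.427, 0.294 and 0.133 FPKM in fl3 replicates 1 to 3, against 0, 0.0468 and 0.0729 FPKM in WT replicates 1 to 3. With no filter on low values lec1 and kn1 both rose, by log2 fold changes of 1.14 and 0.30. Of the 12 embryo genes tested without the filter, 5 rose, 1 fell and 6 missed the threshold. In that setting 9248 of all 27998 tested genes rose and 4975 fell. Among fl3 libraries lec1 and kn1 were highest in replicate 1, as were vp1, glb1 (GRMZM2G067919), RAB-17 and wox5B. GLB1, wox2A and glb2 were highest in fl3 replicate 2, and ole1, glb3 and EMB5 in fl3 replicate 3. RAB-17, wox5B, glb2 and EMB5 stayed under 1 FPKM. Among the 6 embryo genes that passed the filter, the globulin identifier GLB1 (GRMZM2G067402) had the highest log2 fold change, 1.00 (limma adjusted p = 9.57e-05). Its mean was 6.03 ± 0.611 FPKM in fl3 and 2.53 ± 0.482 FPKM in WT (SD, n = 3 each). The seed maturation regulator vp1 had a mean of 3.70 ± 0.579 FPKM in fl3 and 1.56 ± 0.153 FPKM in WT (SD, n = 3 each; log2 fold change 0.87, limma adjusted p = 0.000158).

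The globulin gene glb3 fell, with a mean of 169 ± 18.7 FPKM in fl3 and 233 ± 21.0 FPKM in WT (SD, n = 3 each; log2 fold change -0.46, limma adjusted p = 0.00244). The summed level of the 13 embryo genes lay between 393 and 456 FPKM in fl3 and between 380 and 403 FPKM in WT, and the genotypes overlapped. The part of embryo tissue in the rise of the embryo-surrounding region genes was not tested. The mean log2 level of the tested embryo genes was 4.45 to 4.50 in fl3 and 4.05 to 4.14 in WT, so it separated the genotypes and a fit with it as a covariate has little left to estimate. In that fit, also made with the data in view, the log2 fold changes were 2.33 to 3.77 with standard errors up to 1.26, and none of the 5 calls held (limma adjusted p from 0.124 to 0.421).

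Receptors and partners known from CLE signalling in maize meristems ranged from nearly undetected to moderate levels. The list found 4 genes and 3 were tested. Of these 1 rose, 0 fell and 2 missed the threshold, beside 43.5% higher and 23.8% lower over all tested genes. The receptor-like protein gene fea3 (GRMZM2G166524) rose, at 2.56, 2.93 and 2.82 FPKM in fl3 replicates 1 to 3 against 0.991, 0.943 and 0.698 FPKM in WT replicates 1 to 3 (log2 fold change 1.01). Like ae3, fea3 was under 1 FPKM in every WT library and reached the filter only through fl3; with no filter its limma adjusted p was 0.000217. The receptor-like protein gene fea2 averaged 6.58 ± 0.587 FPKM in fl3 and 6.18 ± 0.584 FPKM in WT (SD, n = 3 each; limma adjusted p = 0.469). ct2, the alpha subunit of a G protein, averaged 47.9 ± 2.44 FPKM in fl3 and 44.7 ± 1.14 FPKM in WT (SD, n = 3 each; limma adjusted p = 0.165), and the receptor kinase gene td1 did not exceed 0.0811 FPKM.

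Of 4 listed regulators of endosperm cell types, 3 were tested. Among these 1 rose, 0 fell and 2 missed the threshold, beside 43.5% higher and 23.8% lower over all tested genes. dek1 (GRMZM2G321753) also fell with median-of-ratios scaling (limma adjusted p = 0.0221) and with quantile normalization (limma adjusted p = 0.0377). nkd1, a zinc-finger regulator of aleurone fate, rose to a mean of 174.7 ± 5.84 FPKM in fl3, against 113 ± 6.35 FPKM in WT (SD, n = 3 each; log2 fold change 0.63, limma adjusted p = 3.17e-05). mrp1, the activator of basal transfer layer genes, did not exceed 0.198 FPKM. The 3 tested regulators are also on the list of aleurone genes, so nkd1 is counted in both. Among 8 aleurone genes 6 were tested: 2 rose, 1 fell and 3 missed the threshold, while quantile normalization and median-of-ratios scaling each gave 2 that rose and 3 that fell. The 1 that fell, vpp1, did not pass without fl3 replicate 2 or 3, or without any WT library. The receptor kinase gene cr4 rose to 15.7 ± 0.542 FPKM in fl3, against 4.65 ± 0.503 FPKM in WT (SD, n = 3 each; log2 fold change 1.57, limma adjusted p = 1.13e-06).

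The defensin-like and basal-layer antifungal genes other than esr6 formed a further list, which overlaps that of the basal transfer layer. Of its 7 genes 3 were tested, all of them also on the basal transfer layer list. Of these 0 rose, 1 fell and 2 missed the threshold, beside 43.5% higher and 23.8% lower over all tested genes. The 1 that fell is the same gene on both lists. Without fl3 replicate 2, 0 rose and 2 fell. The genes bap-3a and bap-3b, given below, were matched by neither list. With no filter on low values DEF1 (GRMZM2G153488) also rose, with 0.992, 0.559 and 0.843 FPKM in fl3 replicates 1 to 3 against 0.108, 0.104 and 0.271 FPKM in WT replicates 1 to 3 (log2 fold change 0.63, limma adjusted p = 0.00232). The embryo-sac genes es1, es4 and the gene carrying the name es2 were at 0 in every library. bap-1a (GRMZM2G008271), a basal-layer antifungal peptide gene, fell: it had 12.1, 19.4 and 5.50 FPKM in fl3 replicates 1 to 3, against 101, 54.5 and 76.3 FPKM in WT replicates 1 to 3 (log2 fold change -2.66, SE 0.38, limma adjusted p = 0.000308). The difference in response between esr6 and this list was not tested.

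The position of the genes was taken as gene order in the RefSeq table of Zm-B73-REFERENCE-NAM-5.0, which differs from the build of the files, B73 RefGen_v3, so no coordinates are given. esr2, esr1 and ESR3 are neighbours on chromosome 1, in that order, with 1 gene without a tested identifier between esr1 and ESR3. Their log2 fold changes, 1.41, 2.11 and 2.84, ascended along that order. The nearest tested gene before esr2, GRMZM2G124143, had 42.8 ± 4.60 FPKM in fl3 and 48.7 ± 2.44 FPKM in WT (SD, n = 3 each; log2 fold change -0.19, limma adjusted p = 0.069). It was called lower under the 3 other scalings, with -0.35 under median-of-ratios scaling, and without fl3 replicate 3. The nearest after ESR3, GRMZM2G112793, had 103 ± 1.92 FPKM in fl3 and 96.3 ± 2.79 FPKM in WT (SD, n = 3 each; log2 fold change 0.10, limma adjusted p = 0.114). Neither of these immediate neighbours was called higher. Among the 8 tested genes nearest the trio, 4 on each side, 4 rose, 1 fell and 3 missed the threshold, where 43.5% of all tested genes rose. Of those that rose, GRMZM2G063287 averaged 3.98 FPKM in fl3 and 0.529 FPKM in WT, so it reached the filter only through fl3.

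ae3 lies on chromosome 10 directly beside bap-1a, with no other listed gene between them, and the pair moved in opposite directions, by log2 fold changes of 2.81 and -2.66. Mean levels were 11.1 FPKM for ae3 and 12.3 FPKM for bap-1a in fl3, and 0.688 FPKM for ae3 and 77.4 FPKM for bap-1a in WT. The next tested genes after bap-1a are other bap genes, none of which passed with all 6 libraries: bap1-b had a log2 fold change of -0.13, bap-3a of 0.18 and bap-3b of -0.18. On the other side of ae3, GRMZM2G070555 rose by a log2 fold change of 0.57 (limma adjusted p = 0.000812). esr6 lies on chromosome 4, where 6 of the 8 nearest tested genes rose and 2 missed the threshold, beside 43.5% higher over all tested genes, with log2 fold changes from -0.22 to 2.58.

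**Figure D5:**
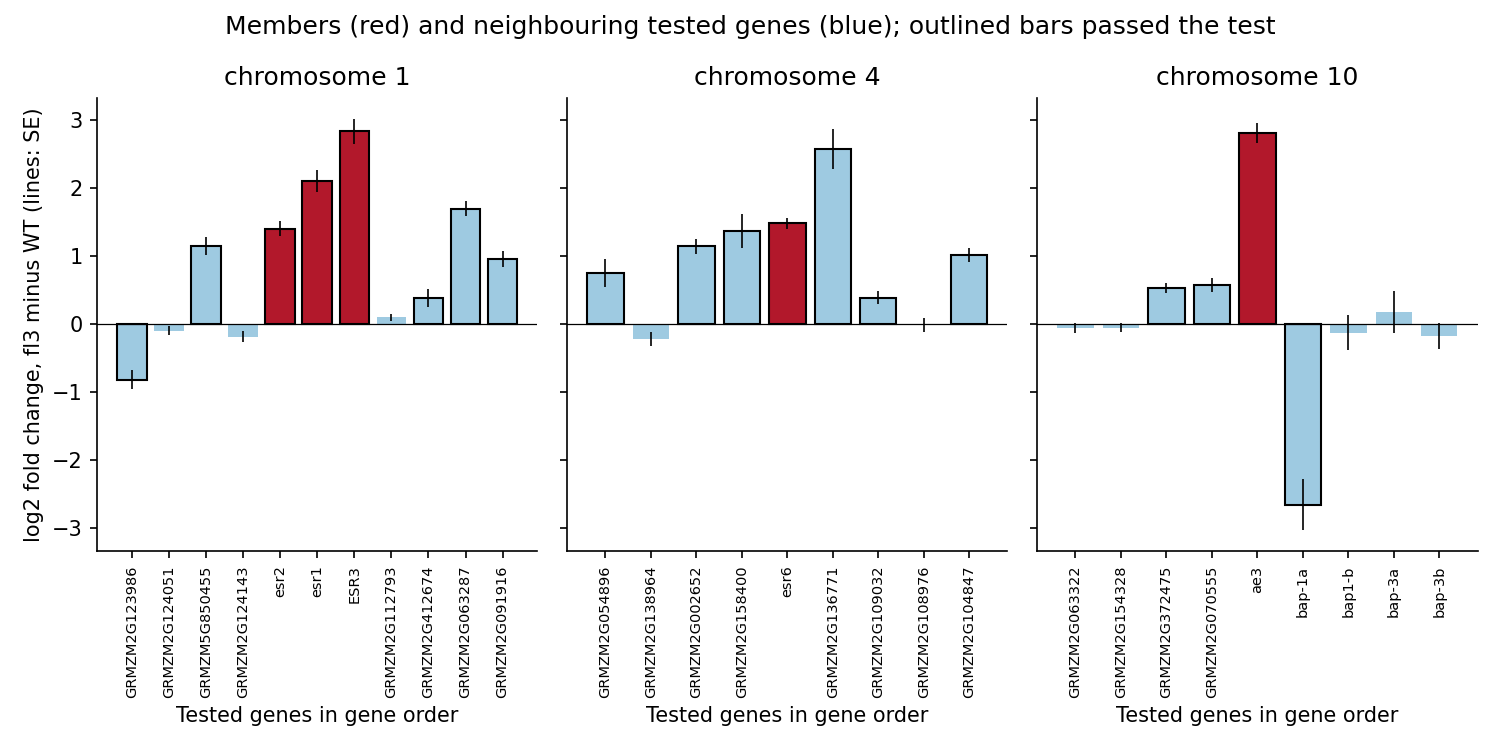
Log2 fold change (fl3 minus WT, log2(FPKM + 1)) with its SE for the embryo-surrounding region genes (red) and the 4 nearest tested genes on each side (blue), in gene order on chromosomes 1, 4 and 10, with black outlines for genes that passed the test. The esr2, esr1 and ESR3 bars stand between flanking genes at -0.19 and 0.10, and on chromosome 10 the ae3 bar at 2.81 stands beside bap-1a at -2.66.

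The named genes most like the group were taken by the root-mean-square difference between a gene's log2(FPKM + 1) profile over the 6 libraries, centred on its mean, and the median profile of the 5 genes. esr1 was nearest to that profile, at 0.08, and ae3 farthest, at 0.46. Outside the group, MSRB5.1 (GRMZM2G577677), which carries the name of methionine sulfoxide reductase B, was the nearest named gene at 0.13, with 26.9 ± 3.70 FPKM in fl3 and 6.33 ± 0.960 FPKM in WT (SD, n = 3 each). thi1-2 (GRMZM2G074097), of thiamine synthesis, followed at 0.13, with 284 ± 21.8 FPKM in fl3 and 63.3 ± 7.84 FPKM in WT, and then sip1 (GRMZM2G374971) at 0.16, with 5.65 ± 0.670 FPKM in fl3 and 0.556 ± 0.0451 FPKM in WT. Of all tested genes, named or not, these ranked 4th, 6th and 23rd by likeness. Like ae3, sip1 was under 1 FPKM in every WT library and reached the filter only through fl3. The profile takes in the difference between genotypes as well as that between replicates.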

How the data were processed

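The deposited FPKM values of the 6 libraries, 1 table each, were used as the authors made them. Per the submitters' processing notes, FastQC, TopHat and Bowtie2 and the build B73 RefGen_v3 were used. Their roles are not stated there, and how FPKM, gene models and strand were handled is likewise not given in the sources used here. Values did not fall into steps of whole reads (at most 2.37% of low genes shared a ratio between libraries within a bin of 0.01 in natural log), so no counts were recovered and no counting interval is given. A linear model with genotype alone was fitted to log2(FPKM + 1) of 17272 genes (limma 3.58.1, R 4.3.3, eBayes with a mean-variance trend) and tested on simulated data. Exact permutation tests used SciPy 1.17.1, with Python 3.11.15, pandas 2.3.3 and matplotlib 3.10.9.

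Names came from the RefSeq table, which matched 18905 of 39448 identifiers; 1729 tested genes had an informative name. Genes named are the 5 members, floury3, up to 2 genes per marker list by size of change, the 3 most alike named genes and the nearest tested neighbours. lec1, kn1, knox3, wox2A, ole1, glb3, mrp1, vpp1, td1, fea2, BETL1, MEG1, DEF1, es1, es2, es4 and the further bap genes were chosen after their values were seen. So were glb1 (GRMZM2G067919), glb2, RAB-17, wox5B, EMB5 and GRMZM2G063287. Members and lists were chosen with earlier results of these data known. No listed CLE peptide symbol was found, and a catalase that shares the synonym Ct2 was left out. A planned motif search was not run. Alternatives covered the pseudocount, filter, scaling, variance model, library weights, the replicate block and leaving out each library.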

Additional observations from a re-analysis of the deposited data

How the results depend on the processing

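The rise of esr1, esr2, ESR3 and esr6 kept its direction and its call under the 16 other settings that did not add a covariate. Log2 fold changes were 1.95 to 2.31 for esr1, 1.24 to 1.50 for esr2, 2.63 to 2.98 for ESR3 and 1.32 to 1.54 for esr6, with adjusted p of at most 0.000135 by limma. The log2 fold change of ae3 was 2.58 to 3.80, but ae3 passed any filter only through fl3, so its calls with a filter are not counted. With no filter on low values its limma adjusted p was 2.57e-05. The counts over all genes, 7519 higher and 4107 lower in fl3, moved by over 1.5 times in 1 of the 16 settings: with a filter at a mean of 5 FPKM, which tests 11264 genes, 4771 were higher. Leaving out 1 library at a time gave 6888 to 7357 higher and 3613 to 4007 lower. The replicate block gave 7240 higher and 3897 lower; same-numbered libraries did not deviate together (correlations of -0.15, 0.07 and -0.02 across genes), so the numbers are not taken to pair them. The difference of the ESR3 to ae3 ratio, 0.02 on the log2 scale, was -1.04 without a pseudocount, since ae3 was under 1 FPKM in WT. With the embryo gene mean as a covariate, added after the data were seen, 5 genes were higher and 2 lower over the whole table, and the values of esr1, esr2, ESR3, esr6 and ae3 were 2.40, 2.67, 3.77, 2.33 and 3.09, none of them called; that mean separates the genotypes. Depth is unknown, and the values of ae3 in WT, all under 1 FPKM, are the least certain.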

Other observations

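The tested genes on either side of esr6 in the gene order of chromosome 4 also rose, but with another order of libraries. GRMZM2G158400 had 295, 487 and 213 FPKM in fl3 replicates 1 to 3, against 113, 133 and 116 FPKM in WT replicates 1 to 3 (log2 fold change 1.37, SE 0.25, limma adjusted p = 0.00127). GRMZM2G136771 had 91.0, 143 and 69.7 FPKM in fl3 replicates 1 to 3, against 21.2, 16.5 and 10.3 FPKM in WT replicates 1 to 3 (log2 fold change 2.58, SE 0.29, limma adjusted p = 7.83e-05). Both were highest in fl3 replicate 2 and lowest in fl3 replicate 3, as the summed basal transfer layer genes were, whereas esr6 was highest in fl3 replicate 1. The reference table gives neither gene an informative name.

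The basal transfer layer genes that rose were betl3, BETL1 and MEG1. betl3 had 14.0, 43.9 and 19.9 FPKM in fl3 replicates 1 to 3, against 4.63, 5.57 and 4.55 FPKM in WT replicates 1 to 3 (log2 fold change 2.03, SE 0.33, limma adjusted p = 0.000692). BETL1 (GRMZM2G082785) averaged 1000.5 ± 355 FPKM in fl3 and 566 ± 111 FPKM in WT (SD, n = 3 each; log2 fold change 0.78, limma adjusted p = 0.0155). The call of BETL1 was lost without WT replicate 3 (limma adjusted p = 0.0581). MEG1, at 0.63 with a limma adjusted p of 0.0484, lost its call under all 3 other scalings and in 5 of the 6 fits without 1 library.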
